A study of Mus musculus with 21 samples.

Results

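The genes described here are 10 established markers of microglia, followed through cultures of mouse cortex in which nascent RNA was measured after the activity of the neuronal network had been raised. They are Csf1r, Cx3cr1, Aif1, P2ry12, C1qa, C1qb, C1qc, Tmem119, Trem2 and Tyrobp, and they were taken by symbol from a table of 24984 genes. They are known microglial genes, and the rule that names them uses no measured value, although it was set with earlier results of these data known. The assay was BrU-seq, in which newly made RNA takes up bromouridine and is then captured for sequencing, so that values follow new synthesis more closely than the stock of RNA in the cell. The cultures were made from the cortex of CD1 mice, were of mixed sex and had reached day 17 in vitro. They received DMSO, the solvent, or 25 µM MM401 for 30 min, and then 40 µM bicuculline-methiodide or sterile water, its vehicle, for 1 h or 4 h, with 2 mM bromouridine in all cultures over the last 30 min. MM401 blocks the contact between the histone methyltransferase MLL1 and its partner WDR5, and bicuculline blocks inhibitory GABA-A receptors, which raises network activity. There were 7 groups: DMSO with water at 4 h, DMSO with bicuculline at 1 h and at 4 h, and MM401 with either solution at either time. Each group had 3 libraries, except that MM401 with water at 4 h is represented by 2 here. A DMSO group with water at 1 h was not analysed here, so bicuculline at 1 h with DMSO was set against water at 4 h. The labels call the cultures primary neuron cultures and do not say how many microglia they held or whether growth of glia was limited.

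Microglia are the resident macrophages of the brain. They survive on signals through the receptor CSF1R, which binds the cytokines CSF1 and IL-34, and they sense neurons through the fractalkine receptor CX3CR1 and the purine receptor P2RY12, which guides their processes towards released nucleotides. TREM2 is a surface receptor for lipids that signals through the adaptor TYROBP (also called DAP12), and the 3 chains encoded by C1qa, C1qb and C1qc form C1q, the complement component that tags synapses and debris for removal. Aif1 encodes IBA1, an actin-binding protein used to stain microglia, and Tmem119 encodes a membrane protein that separates resident microglia from other macrophages.

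The members lie on 7 chromosomes of the mouse build mm10, and each has a single position in the deposited table. Coordinates are given as the table has them, and its starts fall 1 base before the RefSeq start for 16583 of 24103 genes matched by symbol. Csf1r spans 25569 bases on the plus strand. Cx3cr1 spans chr9:120048682-120068296 and P2ry12 chr3:59216270-59262985, both on the minus strand. Trem2 spans chr17:48346400-48352276 and Tyrobp chr7:30413781-30417579, both on the plus strand. The C1q genes sit side by side on the minus strand of chromosome 4, with C1qb at chr4:136880125-136886200, C1qc at chr4:136889801-136892914 and C1qa at chr4:136895915-136898844. Aif1 spans chr17:35170985-35176052 and Tmem119 chr5:113793728-113800352, both on the minus strand. Reads were counted over the whole span of each gene, introns included. Of the 10 members, 2 overlap another annotated gene. P2ry12 lies wholly inside Med12l, a gene for a Mediator subunit that runs on the opposite strand and carried 47 counts per kb against 5.97 for P2ry12. The use of strand in counting is not given in the sources used here, so reads of Med12l and P2ry12 cannot be told apart with certainty. Csf1r contains the 65 bases of Mir6983, which had 0 counts.

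Sequences just upstream of the gene starts are shown for 4 members because C1qb, C1qc and Cx3cr1 rose at 4 h with MM401 and Trem2 was the member called lower at 1 h. They are the 250 bases before each RefSeq start in build GRCm38.p6, read 5′ to 3′ on the gene's own strand. A promoter entry was matched for 6 of the 10 members. Capitals mark GAGGAA or its reverse complement TTCCTC, letters that hold the GGAA core bound by PU.1, the transcription factor encoded by Spi1 on which many macrophage and microglial genes depend. The regions are chr4:136886201-136886450 for C1qb, chr4:136892915-136893164 for C1qc and chr9:120068297-120068546 for Cx3cr1, all on the minus strand, and chr17:48346151-48346400 on the plus strand for Trem2.
C1qb: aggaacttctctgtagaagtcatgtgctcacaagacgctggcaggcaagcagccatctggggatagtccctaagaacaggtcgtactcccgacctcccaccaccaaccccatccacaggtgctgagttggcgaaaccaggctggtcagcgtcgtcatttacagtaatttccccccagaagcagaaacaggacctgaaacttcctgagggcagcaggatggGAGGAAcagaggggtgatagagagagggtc
C1qc: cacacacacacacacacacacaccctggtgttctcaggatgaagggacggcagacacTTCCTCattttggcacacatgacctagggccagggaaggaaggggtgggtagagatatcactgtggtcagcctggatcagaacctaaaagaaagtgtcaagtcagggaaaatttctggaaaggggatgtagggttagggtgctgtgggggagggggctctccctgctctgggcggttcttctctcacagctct
Trem2: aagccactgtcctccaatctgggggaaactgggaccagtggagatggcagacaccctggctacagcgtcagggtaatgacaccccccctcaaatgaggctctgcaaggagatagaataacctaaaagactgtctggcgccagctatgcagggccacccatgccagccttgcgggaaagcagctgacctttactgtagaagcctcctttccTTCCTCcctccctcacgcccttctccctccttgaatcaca
Cx3cr1: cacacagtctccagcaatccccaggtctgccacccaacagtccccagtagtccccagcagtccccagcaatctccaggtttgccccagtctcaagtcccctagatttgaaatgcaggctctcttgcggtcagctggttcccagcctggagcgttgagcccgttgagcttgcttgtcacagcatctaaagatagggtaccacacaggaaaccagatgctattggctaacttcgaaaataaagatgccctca
The letters GAGGAA, on either strand, were present in 4 of the 6 windows, those of Aif1, C1qb, C1qc and Trem2, and in 23.3% of the 32851 mouse promoter windows of the same length. They start 30 bases before the gene start in C1qb, 40 in Trem2, 193 in C1qc and 7 in Aif1, counted to the far base of the match. The longer form GAGGAAGT, which contains GAGGAA, was found in the window of C1qc and in 2.44% of all windows. The windows of Cx3cr1 and P2ry12 held no GAGGAA, which says only that these letters are absent from those 250 bases.

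The 20 libraries used held 49886348 to 87939384 counts in genes, and 1935 to 4263 of these fell on the 10 members. A further library, replicate 3 of MM401 with water at 4 h, held 316741 counts, which is 0.503% of the median, and was left out. Replicates are described by the study as biological. With bicuculline the activity-induced genes Fos and Npas4 were called higher in all 4 comparisons with water, by 1.18 to 3.04 for Fos and by 3.36 to 4.44 for Npas4 on the log2 scale. Group means of the summed CPM over 10 neuron markers ran from 5169 to 7906, and over 10 astrocyte markers from 1231 to 1746, where CPM is the usual count relative to the library total, here after TMM scaling. Over 7 endothelial markers they ran from 3.34 to 4.26. Among 8 markers of macrophages at the borders of the brain, Cbr2 was at 0 in 17 and Clec10a in 12 of the 20 libraries, while Mrc1 reached a mean of 17.3 CPM and Ms4a7 10.2 CPM. None of these levels and sums is adjusted for gene length. Per kb of gene span Mrc1 had 0.169 CPM and Ms4a7 0.675 CPM. Because this is RNA from whole cultures, fewer microglia and less RNA made per microglial cell cannot be told apart.

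Of the 10 members, 9 were expressed enough to compare. These 9 passed the filter on low counts and had at least 10 counts in each of the 20 libraries, with the lowest count, 54, for Tyrobp. Tmem119 did not pass: it had 1 to 10 counts per library and a mean of 0.0617 CPM, and no difference of Tmem119 was detectable at this depth. Adjusted for the length of the gene span, the C1q chains gave the highest signal, with means of 1 CPM per kb for C1qb, 0.946 for C1qa and 0.927 for C1qc. Within a library the highest of the 3 chains was 1.02 to 1.54 times the lowest. Cx3cr1 followed with 0.701 CPM per kb, then Trem2 with 0.58, Aif1 with 0.536, Tyrobp with 0.485 and Csf1r with 0.284. The median of the 16959 genes tested was 0.592 CPM per kb. P2ry12 had 0.0932 CPM per kb and Tmem119 0.00931, so of 2 markers used to identify resident microglia, 1 had too few counts to be tested and the other lies inside a more strongly read gene.

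**Figure D1:**
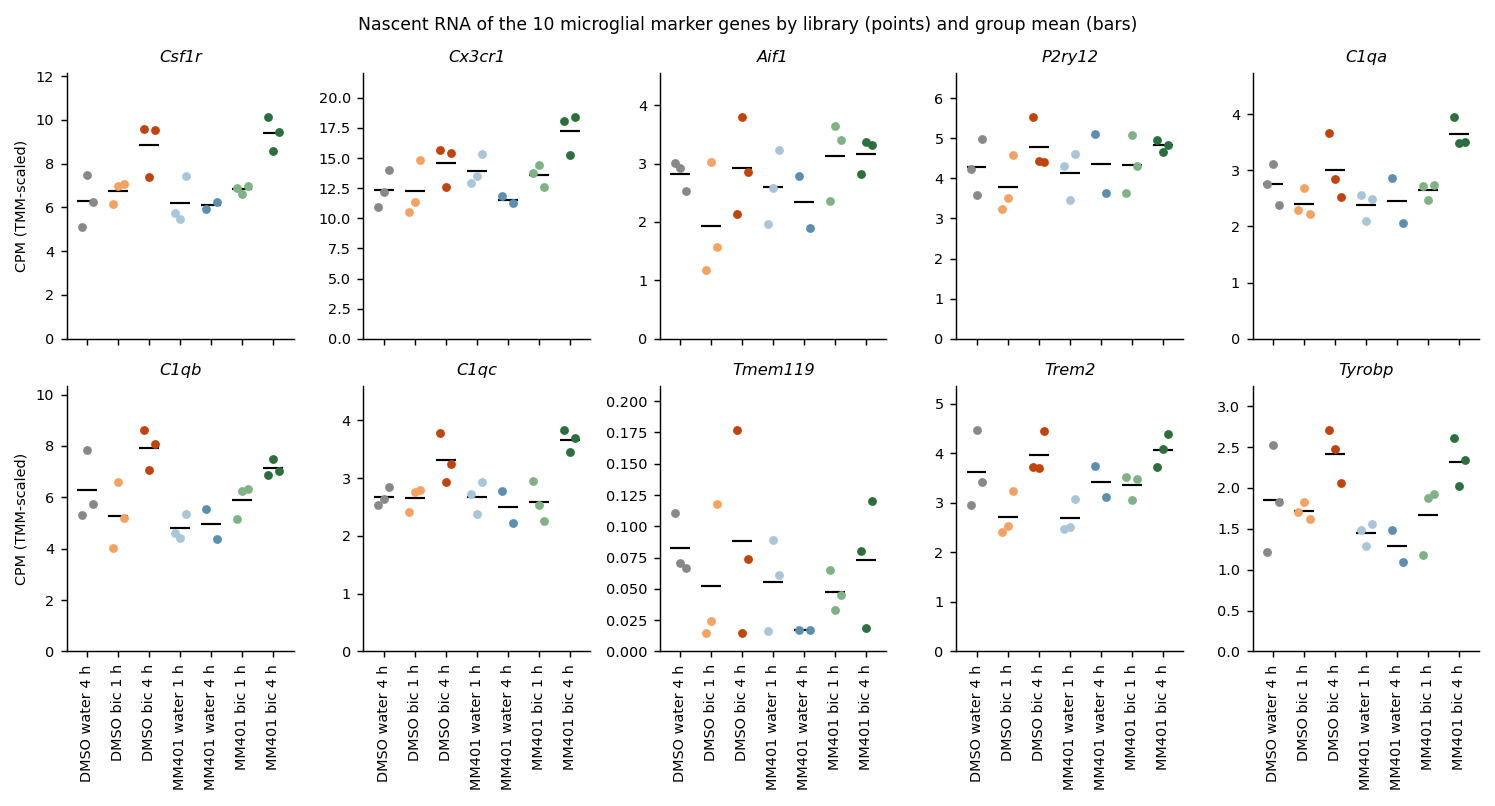
Nascent RNA of each of the 10 members in CPM (TMM-scaled, vertical axis from 0) in each library (points) and as the group mean (bars), with bicuculline shortened to bic. The highest group mean of each of the 9 tested members was in a bicuculline 4 h group, and Tmem119 stayed under 0.18 CPM in every library. The share of all genes with this order was not counted.

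Across the 7 groups the members were highest after 4 h of bicuculline. The highest group mean was a bicuculline 4 h group for 9 of 9 tested members, and the 2 highest means were the 2 bicuculline 4 h groups for 8 of 9, with Aif1 as the exception. How many of all 16959 tested genes had this order was not counted. At 4 h of bicuculline 23.0% of them were called higher than water with MM401 and 23.7% with DMSO. Summed over the 10 members, group means were 55.5 CPM ± 2.68 (SD, n = 3) with MM401 and bicuculline at 4 h, 51.9 ± 4.24 (n = 3) with DMSO and bicuculline at 4 h, 44.1 ± 1.88 (n = 3) with MM401 and bicuculline at 1 h, and 43.0 ± 4.43 (n = 3) with DMSO and water at 4 h. The lower means were 40.9 ± 4.51 (n = 3) with MM401 and water at 1 h, 39.5 ± 4.88 (n = 3) with DMSO and bicuculline at 1 h, and 39 ± 4.39 (n = 2) with MM401 and water at 4 h. The 6 bicuculline 4 h libraries held 47.3 to 57.1 CPM and the other 14 held 34 to 46.8, so the sums did not overlap, while neighbouring groups on either side of that gap did. This separation depended on the scaling: relative to the plain library total, the lowest bicuculline 4 h library had 42.8 and the highest other library 53.3. No single member had all 6 bicuculline 4 h libraries above all 14 others.

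With MM401 present, 4 h of bicuculline raised 6 of the 9 tested members: Csf1r, Cx3cr1, C1qa, C1qb, C1qc and Tyrobp. A gene was called when its adjusted p was under 0.05 in edgeR's quasi-likelihood test with Benjamini-Hochberg adjustment over all 16959 genes, and in this comparison 23.0% of all genes were called higher, 21.7% lower and 44.6% in either direction. All 9 members had a positive difference, with a median of 0.55 on the log2 scale against 0.02 over all genes, and in 7 of 9 the 3 bicuculline libraries lay above both water libraries, as they did for 34.2% of all genes. With DMSO, 4 h of bicuculline raised 1 of the 9, Csf1r, where 23.7% of all genes were called higher, 25.5% lower and 49.2% in either direction. Here too all 9 differences were positive, with a median of 0.24 against -0.02 over all genes, but relative to the plain library total the members split into 4 positive and 5 negative, with a median of -0.04 against -0.30 over all genes, and Csf1r was no longer called. All 9 members stood above the median of all genes in both 4 h comparisons. The calls of C1qa, C1qb, C1qc and Tyrobp with MM401 rested on water replicate 2 of that arm at 4 h. Without it, the 1 library then left in that group was assumed to vary like the others. Over the fits that left out 1 library, the difference ran from 0.315 to 0.797 for C1qa and from 0.513 to 0.66 for Cx3cr1.

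The test of the difference between both 4 h responses, the interaction of MM401 and bicuculline, called 0 of 9 members in edgeR, and 0 members had an unadjusted p under 0.05 in edgeR or in DESeq2. Over all genes edgeR called 0, where 2552 had an unadjusted p under 0.05. DESeq2 called 436 of the 2164 genes to which it gave an adjusted p, and 0 of the 9 members were among those 2164, so it made no call on them either way. The estimates were positive for 8 of 9 members, with a median of 0.25 on the log2 scale against 0.03 over all genes. Their intervals were wide: the interaction was 0.34 for Cx3cr1 with a 95% interval from -0.03 to 0.72, 0.44 ± 0.23 (SE) for C1qa and 0.49 ± 0.32 for Tyrobp, and the lowest adjusted p in edgeR's quasi-likelihood test was 0.359. So the larger number of members called with MM401 is not shown to be a different response.

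**Figure D2:**
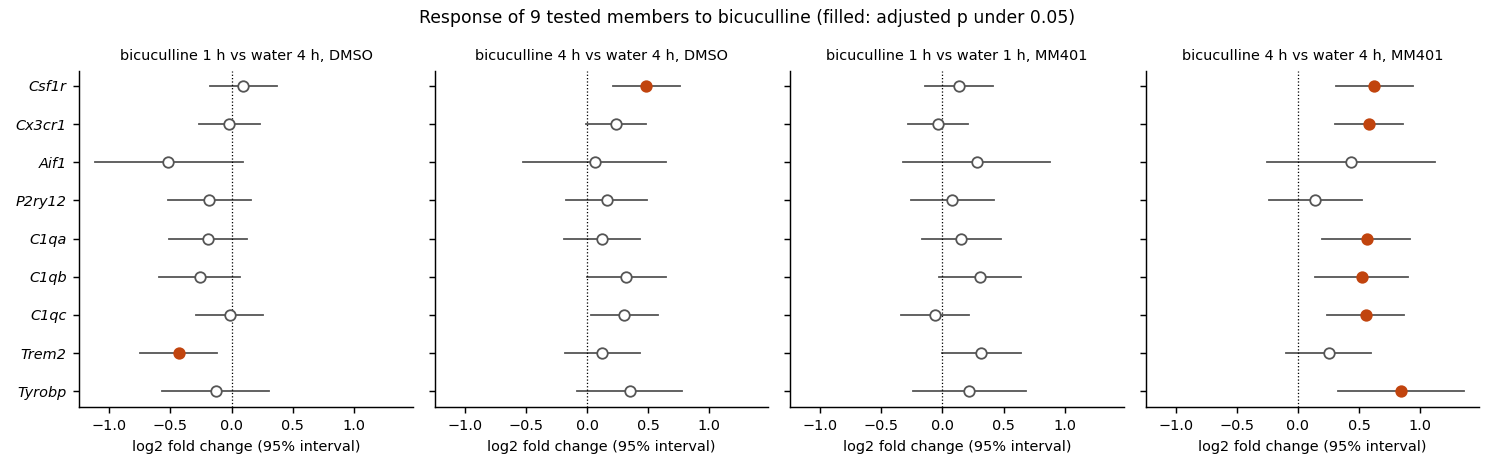
Log2 fold change of the 9 tested members between bicuculline and water (horizontal axis), with the 95% interval of the fit as a line, in 4 comparisons; filled points have an adjusted p under 0.05. All 9 points lie above 0 in both 4 h panels, with 1 filled with DMSO and 6 with MM401, while at 1 h the only filled point is Trem2, below 0.

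Among the receptors, Csf1r changed at 4 h in both arms. Its level was 5.12, 7.50 and 6.24 CPM in replicates 1, 2 and 3 of DMSO with water, and 9.60, 7.40 and 9.54 CPM with bicuculline at 4 h. Bicuculline replicate 2 lay just below water replicate 2, and the other bicuculline libraries were above all water libraries. The difference was 0.49 ± 0.13 (log2, SE), or 1.4-fold, with an adjusted p of 0.00378 in edgeR's quasi-likelihood test. With MM401, Csf1r had 5.95 and 6.24 CPM in the water libraries at 4 h and 10.1, 8.59 and 9.45 CPM with bicuculline. These groups did not overlap, and the difference was 0.62 ± 0.15, or 1.54-fold (edgeR adjusted p = 0.00187). After 1 h Csf1r was at 6.15, 6.99 and 7.08 CPM with DMSO and at 6.90, 6.62 and 6.96 CPM with MM401, against 5.73, 5.48 and 7.43 CPM in water at 1 h with MM401. Neither 1 h difference passed the test (0.09 ± 0.13 and 0.14 ± 0.13). The step from 1 h to 4 h of bicuculline was called in both arms, at 0.39 ± 0.13 with DMSO and 0.46 ± 0.13 with MM401, and the groups did not overlap in either arm. The DMSO call of this step was lost under plain library totals, with the shallow library included, and in 3 of 6 fits that left out 1 library (replicate 1 at 1 h, or replicate 1 or 3 at 4 h). The MM401 call was lost with the shallow library included.

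Cx3cr1 rose at 4 h with MM401. It had 11.8 and 11.2 CPM in water at 4 h and 18.1, 15.2 and 18.4 CPM with bicuculline, which did not overlap and differed by 0.58 ± 0.14 on the log2 scale (edgeR adjusted p = 0.00153). Those water libraries lay wholly below the ones of MM401 with water at 1 h. That difference of -0.27 ± 0.14 was not called (edgeR adjusted p = 0.528). With DMSO, Cx3cr1 was at 10.9, 12.2 and 14 CPM in water and 15.7, 12.6 and 15.5 CPM with bicuculline at 4 h. These groups overlapped through bicuculline replicate 2, and the difference, 0.24 ± 0.12, did not pass (edgeR adjusted p = 0.106). At 1 h Cx3cr1 was flat within its spread: 10.6, 11.4 and 14.8 CPM with DMSO and bicuculline, 13.8, 14.4 and 12.6 CPM with MM401 and bicuculline, and 12.9, 13.5 and 15.3 CPM with MM401 and water. P2ry12 was not called in any comparison. Its group means ran from 3.78 CPM ± 0.71 (SD, n = 3) with DMSO and bicuculline at 1 h to 4.82 ± 0.16 (n = 3) with MM401 and bicuculline at 4 h, and the libraries overlapped in all 10 comparisons of groups. At 4 h P2ry12 differed from water by 0.16 ± 0.16 with DMSO and 0.14 ± 0.18 with MM401 (log2, SE). Med12l, the gene around P2ry12, differed by -0.14 and, called, by -0.35 ± 0.07 in the same comparisons.

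The complement genes C1qa, C1qb and C1qc moved together at 4 h with MM401. C1qa had 2.86 and 2.06 CPM in water and 3.94, 3.48 and 3.50 CPM with bicuculline, a difference of 0.56 ± 0.17 (log2, SE). C1qb had 5.56 and 4.37 CPM in water and 6.89, 7.48 and 7.01 CPM with bicuculline, a difference of 0.52 ± 0.18. C1qc had 2.77 and 2.22 CPM in water and 3.83, 3.46 and 3.69 CPM with bicuculline, a difference of 0.55 ± 0.15. All bicuculline libraries exceeded both water libraries for each chain, with edgeR adjusted p-values of 0.0111, 0.0245 and 0.00514. Each of these 3 calls was lost when water replicate 2 was left out, and that of C1qb also without replicate 2 of MM401 with bicuculline at 4 h and under plain library totals (edgeR adjusted p = 0.0777).

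With DMSO the same chains had higher means after 4 h under TMM scaling without passing the test. C1qa had 2.76, 3.11 and 2.38 CPM in water and 3.66, 2.84 and 2.53 CPM with bicuculline. C1qb had 5.31, 7.85 and 5.74 CPM in water and 8.61, 7.05 and 8.07 CPM with bicuculline. C1qc had 2.54, 2.64 and 2.86 CPM in water and 3.79, 2.93 and 3.24 CPM with bicuculline. The libraries overlapped for C1qa and C1qb, and those of C1qc did not, but the share of all genes without overlap was not counted in this comparison. The differences were 0.12 ± 0.15 for C1qa, 0.32 ± 0.16 for C1qb and 0.30 ± 0.13 for C1qc (log2, SE), and the adjusted p-values from edgeR were 0.538, 0.0942 and 0.062.

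The genes for TREM2 and its adaptor TYROBP were called in different comparisons with water, and no test set one gene against the other. Trem2 was the only member called after 1 h. With DMSO it was at 2.97, 4.47 and 3.43 CPM in water at 4 h and at 2.41, 2.53 and 3.23 CPM with bicuculline at 1 h. The highest bicuculline library lay above the lowest water library, so the groups overlapped. The difference was -0.43 ± 0.15 (log2, SE; edgeR adjusted p = 0.0244) in a comparison where 24.5% of all genes were called lower and 44.6% in either direction. The call of Trem2 was lost in 3 of 6 fits that left out 1 library (replicate 1 or 2 of DMSO with bicuculline at 1 h, or replicate 2 of DMSO with water at 4 h), with the shallow library included and with only the groups compared, and water libraries of the matching time were not part of it. With MM401, where water at 1 h served as control, Trem2 was at 2.47, 2.51 and 3.08 CPM in water and 3.52, 3.07 and 3.49 CPM with bicuculline at 1 h, a difference of 0.32 ± 0.15 that did not pass (edgeR adjusted p = 0.107). So the sign differed between arms, and the difference between both 1 h responses was not tested because their controls were of unlike times. In water with MM401, Trem2 was higher at 4 h than at 1 h by 0.35 ± 0.17, without overlap but not called (edgeR adjusted p = 0.512). How much of the DMSO difference goes with time was not tested. Trem2 at 4 h of bicuculline was 3.73, 3.70 and 4.45 CPM with DMSO and 3.73, 4.1 and 4.4 CPM with MM401, against 3.74 and 3.11 CPM in water at 4 h with MM401, and neither arm passed.

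Tyrobp gave the largest difference among the members at 4 h with MM401. Its level was 1.49 and 1.10 CPM in water and 2.61, 2.02 and 2.34 CPM with bicuculline. The groups did not overlap, and the difference was 0.84 ± 0.25 (log2, SE), or 1.8-fold (edgeR adjusted p = 0.00829). That call was lost without replicate 2 of the water group, and with the shallow library included the difference was 0.56 with an edgeR adjusted p of 0.346. With DMSO, Tyrobp was at 1.22, 2.52 and 1.83 CPM in water and 2.71, 2.47 and 2.06 CPM with bicuculline at 4 h. Water replicate 2 lay among the bicuculline libraries, and the difference of 0.35 ± 0.21 did not pass. Aif1 was the most variable member. With DMSO and bicuculline at 1 h it had 1.17, 3.03 and 1.58 CPM, and at 4 h 2.14, 3.79 and 2.85 CPM, against 3, 2.92 and 2.52 CPM in water. With MM401 it had 2.79 and 1.89 CPM in water and 2.82, 3.37 and 3.32 CPM with bicuculline at 4 h, which did not overlap but differed by 0.44 ± 0.32 and did not pass (edgeR adjusted p = 0.294).

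After 1 h with MM401, 0 of 9 members were called against water at 1 h, with 0 at an unadjusted p under 0.05 in edgeR, 0 called by DESeq2 and 2 at an unadjusted p under 0.05 there, while 18.1% of all genes were called higher, 21.8% lower and 39.9% in either direction. The median difference was 0.15 on the log2 scale against 0 over all genes, with 7 positive and 2 negative. Per plain library total it was -0.06 against -0.21 over all genes, with 4 positive and 5 negative. After 1 h with DMSO, against water at 4 h, the median was -0.18 against -0.04 over all genes, with 1 positive and 8 negative, and per plain library total -0.38 against -0.23, with 0 positive and 9 negative. Over the step from 1 h to 4 h of bicuculline, all 9 members had positive differences in both arms. With DMSO 3 were called higher, Csf1r, C1qb (0.58 ± 0.16, edgeR adjusted p = 0.00659) and Trem2 (0.55 ± 0.15, edgeR adjusted p = 0.0063), where 19.1% of all genes were called higher, 15.2% lower and 34.2% in either direction. With MM401 4 were called higher, Csf1r, Cx3cr1 (0.34 ± 0.12), C1qa (0.46 ± 0.15) and C1qc (0.51 ± 0.13), where 17.5% of all genes were called higher, 16.0% lower and 33.6% in either direction. Medians over the members were 0.39 with DMSO and 0.34 with MM401, against 0.02 over all genes in each arm, and with DESeq2's size factors 1 of the 9 differences with MM401 turned negative. These steps share the bicuculline 4 h libraries with the comparisons against water, and both DMSO comparisons with water share their water libraries. Leaving out 1 library moved the number of members called in the step from 1 h to 4 h to between 1 and 5 with DMSO, the lowest without replicate 1 of DMSO with bicuculline at 1 h and the highest without its replicate 3 or without replicate 2 at 4 h. With MM401 it moved to 2 without replicate 3 of bicuculline at 1 h and without replicate 1 of bicuculline at 4 h. In this step C1qb with DMSO lost its call without replicate 1 at 1 h. With MM401, Cx3cr1 lost its call without replicate 1 or 3 of either time, and C1qa without replicate 2 or 3 at 1 h or replicate 1 at 4 h, and both lost it with the shallow library included.

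MM401 itself gave no called difference from DMSO in any member. In edgeR 0 of 9 were called in water, at 1 h of bicuculline or at its 4 h, and DESeq2 called 0 in each. An unadjusted p under 0.05 was reached in edgeR by 1 member in water, Tyrobp, by 1 at 1 h of bicuculline, Aif1, and by 0 at 4 h. Over all genes 0.0826%, 0.00590% and 0% were called in the 3 comparisons. Tyrobp in water at 4 h was at 1.22, 2.52 and 1.83 CPM with DMSO and 1.49 and 1.10 CPM with MM401, an overlapping difference of -0.54 ± 0.25 (log2, SE; edgeR adjusted p = 0.359). Aif1 at 1 h of bicuculline was at 2.36, 3.65 and 3.40 CPM with MM401, an overlapping difference from DMSO of 0.69 ± 0.29 (edgeR adjusted p = 0.999). At 4 h of bicuculline the 95% intervals of all members together spanned -0.48 to 0.70 for MM401 minus DMSO. The narrowest was that of Cx3cr1, from near 0 to 0.49 (0.24 ± 0.12, edgeR adjusted p = 0.639). The intervals of Csf1r, from -0.18 to 0.35, and C1qc, from -0.12 to 0.42, were also among the narrower. In water at 4 h, 8 of 9 members had negative differences between MM401 and DMSO, with a median of -0.10 on the log2 scale against -0.01 over all genes. In the same comparison 33 of 38 other microglial genes and 10 of 10 astrocyte markers had negative differences, with medians of -0.20 and -0.45. Of these lists edgeR called 0 and 0 genes, with 6 and 7 at an unadjusted p under 0.05, and DESeq2 called 1 in each. Without replicate 2 of MM401 with water the medians were -0.03, -0.17 and -0.26. That fit left 1 library in the group. Its filter then also let Tmem119 pass, so the first of these medians is over 10 members. These MM401 water libraries are the controls of the 4 h comparison with MM401. When replicate 1 of the DMSO water group was left out, 1 member was called between MM401 and DMSO in water. In water with MM401, 4 h against 1 h also called 0 of 9 members by edgeR and by DESeq2, with 0 at an unadjusted p under 0.05 in edgeR and 1 in DESeq2, where 0.265% of all genes were called higher, 0.601% lower and 0.867% in either direction.

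The genes for the ligands of these receptors moved in different directions. Il34, made mainly by neurons and 1 of the 2 cytokines that activate CSF1R, fell with bicuculline in all 4 comparisons with water. It was at 4.50, 4.45 and 4.20 CPM in DMSO with water, 3.61, 3.46 and 3.15 CPM after 1 h of bicuculline and 1.68, 1.58 and 1.61 CPM after 4 h. None of these 3 groups overlapped, and the differences from water were -0.36 ± 0.10 at 1 h and -1.43 ± 0.11 at 4 h (log2, SE; edgeR adjusted p = 0.00781 and 6.33e-10). With MM401, Il34 was at 4.97, 5.73 and 5.11 CPM in water at 1 h, 5.95 and 5.16 CPM in water at 4 h, 3.03, 3.22 and 2.72 CPM after 1 h of bicuculline and 1.83, 1.96 and 1.88 CPM after 4 h. The differences from water of the same time were -0.82 ± 0.11 and -1.55 ± 0.12 (edgeR adjusted p = 2.32e-06 and 1.64e-09). So at 4 h the Il34 level was 0.37 of that in water with DMSO and 0.341 of it with MM401, while Csf1r was higher. With the shallow library included the 1 h calls of Il34 were lost (edgeR adjusted p = 0.429 with DMSO and 0.0546 with MM401), and that with DMSO also with only the groups compared and without replicate 3 of bicuculline at 1 h. The 4 h falls of Il34 kept their sign and call under plain library totals, at -1.71 and -1.63.

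Csf1, the other CSF1R ligand, was called higher with DMSO at 1 h and with MM401 at 4 h. Its level was 8.66, 9.83 and 12.1 CPM in DMSO with water, 12.9, 12.9 and 13.3 CPM after 1 h of bicuculline and 13.7, 10.3 and 12.3 CPM after 4 h. With MM401, Csf1 had 9.95 and 8.49 CPM in water at 4 h and 13.2, 11.8 and 14.7 CPM with bicuculline at 4 h, which did not overlap. The called differences were 0.35 ± 0.12 (edgeR adjusted p = 0.0225), and 0.52 ± 0.14 (edgeR adjusted p = 0.004). The first was lost under plain library totals, with the shallow library included and without replicate 1 or 2 of DMSO with water, and the second when replicate 2 of the MM401 water group at 4 h was left out. Cx3cl1, which encodes fractalkine, the neuronal ligand of CX3CR1, was highest at 1 h. It was at 27.6, 28.8 and 32.8 CPM in DMSO with water, 46.0, 51.2 and 47.5 CPM after 1 h of bicuculline and 33.0, 34.5 and 30.6 CPM after 4 h. The 1 h difference of Cx3cl1 was 0.70 ± 0.07 with DMSO and 0.64 ± 0.07 with MM401, and its fall from 1 h to 4 h was -0.56 and -0.42, all called, while Cx3cr1 had its highest means at 4 h. With MM401 at 4 h, Cx3cl1 had 29.71 to 29.76 CPM in water and 34.45 to 37.47 CPM with bicuculline, and was called higher. That call was lost under plain library totals, and the difference ran from 0.214 to 0.276 when 1 library was left out. With DMSO the 4 h difference of Cx3cl1 from water was not called.

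**Figure D3:**
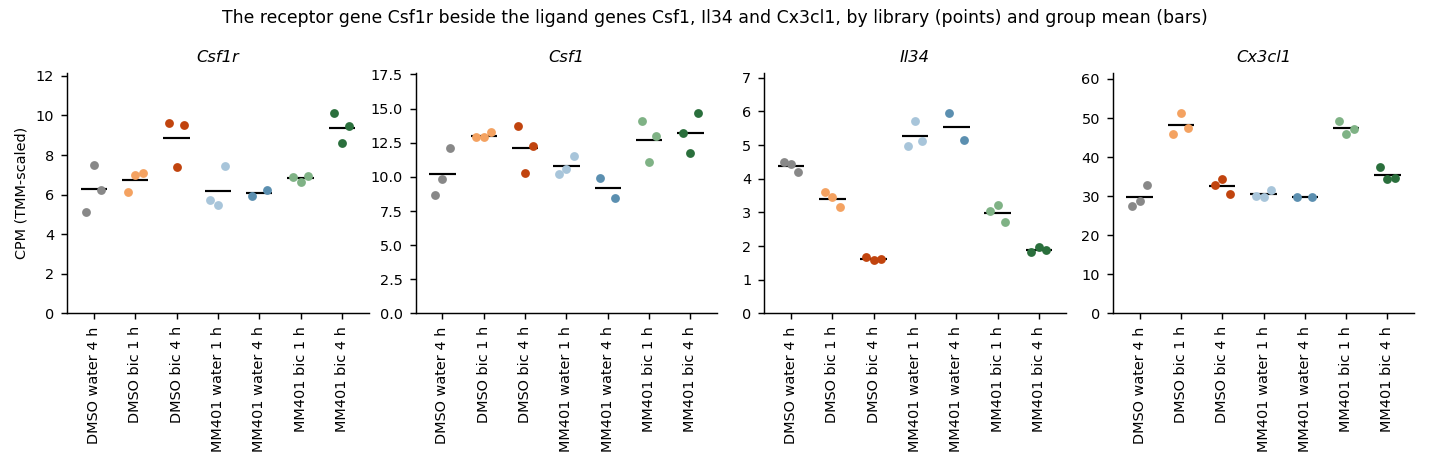
CPM of Csf1r and of the ligand genes Csf1, Il34 and Cx3cl1 in each library (points) and as group means (bars), with linear axes from 0. Il34 falls to between 1.58 and 1.96 CPM in the 6 bicuculline 4 h libraries, and Cx3cl1 exceeds 45 CPM in the 6 bicuculline 1 h libraries only.

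Most other microglial genes were also higher at 4 h with MM401. Of 39 listed genes 38 were tested, and Siglech, with 19 counts in all and 9 libraries at 0, was not. After 4 h of bicuculline 28 were called higher and 0 lower with MM401, and 15 higher and 0 lower with DMSO, where 23.0% and 23.7% of all genes were called higher, with medians of 0.54 and 0.33 on the log2 scale against 0.02 and -0.02 over all genes. With MM401 the genes with the smallest p were Rgs10, a regulator of G-protein signalling (1.08 ± 0.10), Hpgds, a prostaglandin D synthase (0.89 ± 0.12), Cybb, a subunit of the phagocyte NADPH oxidase (0.73 ± 0.12), and Fcgr3, a receptor for antibody (0.94 ± 0.16). With DMSO they were Rgs10 (1.12 ± 0.09), Hpgds (0.62 ± 0.11), Ly86 (0.51 ± 0.12) and Cd53 (0.55 ± 0.13). The DMSO count depended on the scaling, with 2 higher and 1 lower and a median of 0.06 under plain library totals, where MM401 gave 20 higher and 0 lower. Of the genes named for DMSO, Ly86 and Cd53 lost their calls under those totals. The MM401 count was 21 with the shallow library included, and it was also lower without replicate 2 of the water group, which left 1 library there. Counts of all genes called under these settings are not reported here. After 1 h, 2 of the 38 were called higher and 1 lower with DMSO, where 3396 of all 16959 genes were called higher and 24.5% lower, and 5 were called higher and 0 lower with MM401, where 18.1% of all genes were called higher and 21.8% lower. The interaction called 0 of 38 in edgeR, where 4 had an unadjusted p under 0.05, and DESeq2 gave 0 of them an adjusted p. The estimates had 36 positive and 2 negative and a median of 0.21.

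Genes of complement and of microglial activation had more positive than negative differences at 4 h as well. Of 10 further complement genes, 6 were called higher with MM401, 3 with DMSO and 0 lower in either, beside 23.0% and 23.7% of all genes called higher, so that the DMSO count lay near the share of all genes. Medians were 0.70 and 0.44. The receptor genes C3ar1 and C5ar1 differed from water by 0.76 ± 0.14 and 0.89 ± 0.17 with MM401 and by 0.36 ± 0.12 and 0.56 ± 0.15 with DMSO. Under plain library totals the DMSO values fell to 0.08 and 0.28 and were no longer called, and with the shallow library included C5ar1 was called in neither arm and C3ar1 only with MM401. Of 19 tested activation genes, 10 were called higher with MM401, 7 with DMSO and 0 lower in either, with medians of 0.67 and 0.36. Il1b, the gene for the cytokine interleukin-1 beta, rose by 1.66 ± 0.32 with DMSO from a mean of 0.318 CPM to 1.01 CPM. Cd14, a co-receptor for bacterial lipid, rose by 0.81 ± 0.20 with DMSO and by 1.65 ± 0.23 with MM401. Under plain library totals the DMSO counts were 1 complement and 3 activation genes. Leaving out water replicate 2, which left 1 library in that group, also lowered the MM401 counts.

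Some markers of other cells were called in the same comparisons, in which 23.0% of all genes were called higher with MM401 and 23.7% with DMSO. Of 10 astrocyte markers 5 were called higher at 4 h with MM401 and 1 with DMSO, with medians of 0.45 and -0.02, and summed levels of 1169 to 1292 CPM over the water and 1445 to 1530 CPM over the bicuculline libraries with MM401. Of 10 neuron markers 6 were called higher and 2 lower with MM401, and 7 higher and 2 lower with DMSO, with medians of 0.51 and 0.55 beside 0.55 and 0.24 for the members. Summed neuron markers had 5887 to 5987 CPM in water and 6899 to 7532 CPM in bicuculline with MM401, and 5031 to 6185 and 7647 to 8126 CPM with DMSO, without overlap in either arm. Under plain library totals the neuron medians were 0.43 with MM401 and 0.28 with DMSO. Of 10 markers of the oligodendrocyte lineage 4 were higher with MM401 and 3 with DMSO, and of 6 tested border macrophage markers 2, Mrc1 and Ms4a7, were higher in each arm, of which under plain library totals only Ms4a7 with MM401 was still called. Border macrophage markers summed to 30.7 to 33.6 CPM in water and 41.7 to 50.7 CPM in bicuculline with MM401 at 4 h, and to 29.6 to 34.4 and 38.0 to 47.7 CPM with DMSO. These sums rest mainly on Mrc1, Ms4a7 and F13a1, and 2 of the 6 tested border macrophage markers, Lyve1 and Cd163, had negative differences in both arms, none called (-0.37 and -0.87 with DMSO, -0.05 and -0.14 with MM401). Of 5 tested endothelial markers edgeR called 0 in each arm at 4 h, as did DESeq2, with 1 at an unadjusted p under 0.05 in edgeR with MM401 and 0 with DMSO, and of 5 tested mural and fibroblast markers 1 was higher with MM401 and 2 with DMSO. The part of these other cells in the values of the members was not tested.

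**Figure D4:**
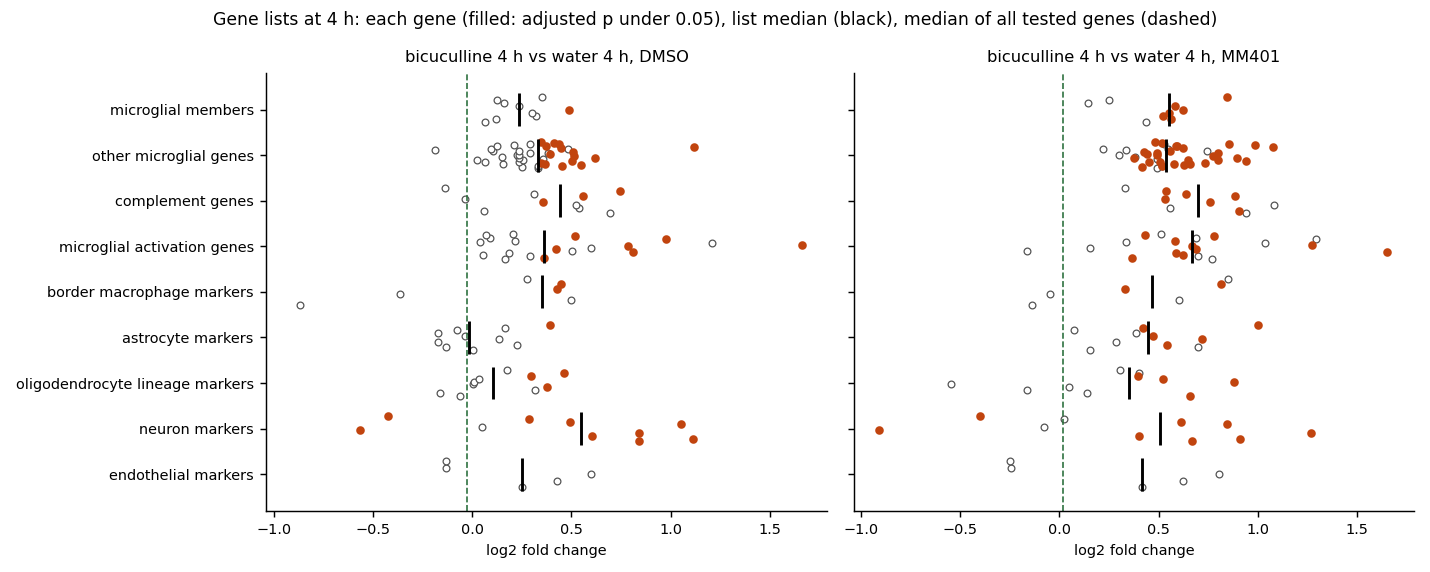
Log2 fold change between bicuculline and water at 4 h (horizontal axis) for every tested gene of 9 lists, with DMSO (left) and MM401 (right); filled points have an adjusted p under 0.05, black bars are list medians and the dashed line is the median of all tested genes. The median of the members is 0.24 with DMSO and 0.55 with MM401, the astrocyte median is near the dashed line with DMSO and at 0.45 with MM401, and neuron markers lie on both sides of 0, with medians of 0.55 with DMSO and 0.51 with MM401.

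Within groups the members varied together to different degrees. For each library the deviation of log2 CPM from the mean of its group was taken, and each member was set against the mean of the other members over the 20 libraries, which share their depth and scaling. Pearson's r was 0.84 for C1qb, 0.604 for Csf1r, 0.556 for Tyrobp and 0.499 for Trem2, and was lowest for Aif1, at 0.223. Aif1 also had the largest SD within groups, 0.39 on the log2 scale, and C1qc the smallest, 0.149, where the median of all tested genes was 0.139. In replicate 1 of DMSO with bicuculline at 1 h 0 of 9 members lay above their group mean, with a mean deviation of -0.20, and in replicate 3 of MM401 with water at 1 h 9 of 9 did, with a mean deviation of 0.18. The 10 genes whose deviations were most like the mean of the members were Cnmd, Gpnmb, Cyba, Lcp2, S100a1, Gbp2, Pdgfra, Serpina3n, Ctss and Selplg, with r from 0.846 down to 0.793 over the same 20 libraries. Of these, Ctss and Selplg were on the list of other microglial genes, and Pdgfra is a marker of oligodendrocyte precursors.

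**Figure D5:**
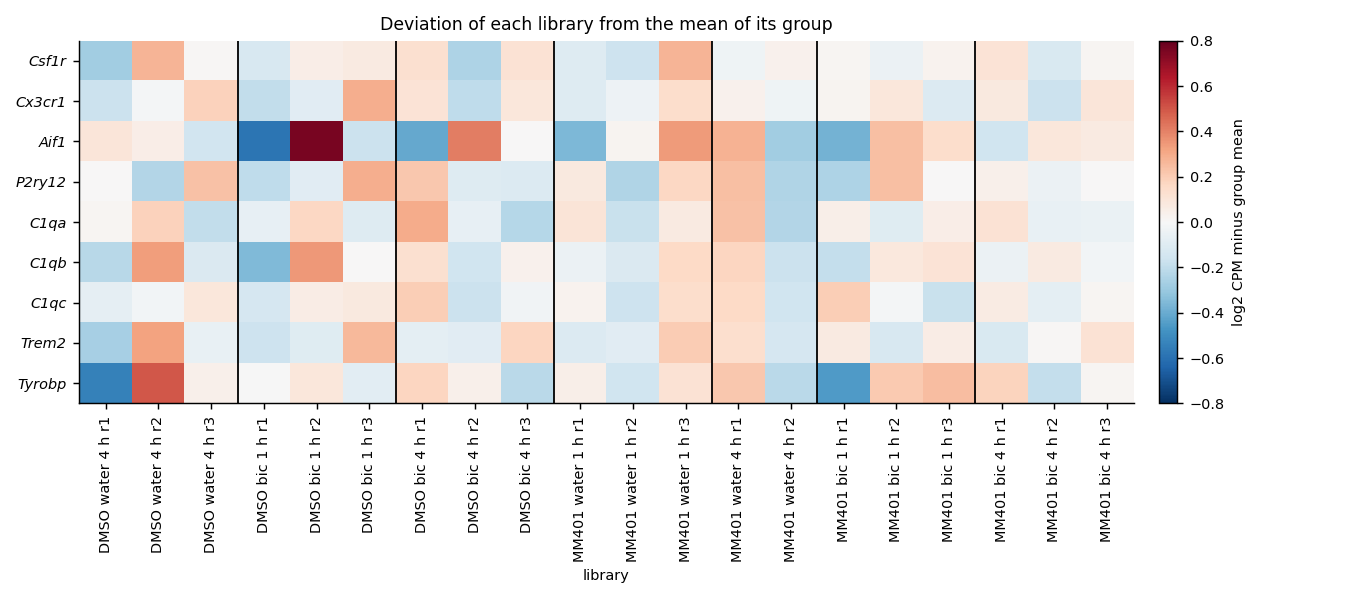
Deviation of log2 CPM of the 9 tested members (rows) in each of 20 libraries (columns) from the mean of its group, from blue (below) to red (above); black lines separate the groups and r is the replicate. Aif1 has the strongest colours, Tyrobp is lowest in replicate 1 and highest in replicate 2 of DMSO with water, and all 9 members are above 0 in replicate 3 of MM401 with water at 1 h.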

How the data were processed

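Raw read counts per gene, deposited by the authors as 1 table in the layout of featureCounts, were used for 20 of 21 libraries. Per the file headers the reads were counted over whole gene spans, and the submitters' processing notes name mouse build mm10, Bowtie2, UMI-tools, featureCounts, DESeq2 and deepTools. Versions, strand use and annotation release are not given in the sources used here. Gene span, the table's length value (other than a count), was taken as the authors deposited it. For 412 genes the table has several positions, and each was kept as 1 gene. The number of unused sample columns was 0.

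In R 4.3.3, edgeR 4.0.16 with limma 3.58.1 kept genes by filterByExpr by group (minimum count 10, minimum total 15), with 16959 genes remaining. TMM scaling was used, and the counts were fitted in 1 model of 7 group means with robust quasi-likelihood (two-sided tests, Benjamini-Hochberg over all genes tested, threshold 0.05). TMM sets the typical gene to no change, so members were also compared under plain library totals. Errors of fold changes are SE from the fit. Deviations within groups used log2 CPM with a prior count of 2. The fits were tested on simulated data.

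The members, gene lists and tests were chosen with earlier results of these data known. All 10 members are named. From each other list at most 4 genes with the smallest p in a comparison described are named, beside the fixed genes Csf1, Il34, Cx3cl1, Fos and Npas4 and genes overlapping a member, and some listed genes are not reported here by name. Mrc1, Ms4a7, Cbr2, Clec10a, Siglech, F13a1, Lyve1, Cd163, Pdgfra, Spi1, Runx1 and Sall1 were named after their values were seen. Alternatives were DESeq2 1.42.0, plain library totals, no filter, a minimum count of 50, all 21 libraries, a replicate block, only the groups compared, and each library left out. Counts for the lists and values of single listed genes under some of these were added after seeing the data.

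Replicate pairs differed by more than sampling noise (chi-square per degree of freedom 6.23 to 79.6). Same-numbered libraries had deviations correlated above 0.1 in all 3 pairs in 1 comparison, MM401 against DMSO in bicuculline at 4 h (0.15, 0.107 and 0.172). The sample titles are numbered in runs with 1 library of each group per replicate number, but no label says that a run shares a culture, litter or day.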

Additional observations from a re-analysis of the deposited data

Results flagged for a closer look

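The library left out of the comparisons, replicate 3 of MM401 with water at 4 h, held 24 counts on the members, of 4 genes. In it Tyrobp had 10 counts, or 31.6 CPM (exact 95% Poisson interval 15.1 to 58.1, which covers counting error only), above the 1.14 to 2.87 CPM of the other water libraries per plain library total. Aif1 had 7 counts, or 22.1 CPM (8.89 to 45.5), against 1.96 to 3.57 CPM. From the other water libraries 0.539 and 0.896 counts would have been expected. Cx3cr1 had 6 counts (18.9 CPM) and C1qb 1 count (3.16 CPM). The other 6 members had 0 counts, which allows up to 9.47 CPM by the limit of 3 counts and up to 11.6 CPM by the exact interval. What these counts come from was not tested.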

How the results depend on the processing

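Tmem119 could not be compared at this depth, and without the filter on low counts it was called in 0 of the comparisons, with 21464 genes tested. The number of members called with bicuculline at 1 h and DMSO was 1, but 3 under plain library totals, 0 with all 21 libraries and 0 with only the groups compared. With bicuculline at 4 h and DMSO it was 1, but 2 with DESeq2 and 0 under plain library totals. With bicuculline at 1 h and MM401 it was 0, but 1 with only the groups compared, and for 4 h against 1 h of bicuculline with MM401 it was 4, but 1 with all 21 libraries. Leaving out 1 library gave 0 to 2 for bicuculline at 1 h with DMSO, 1 to 3 at 4 h with DMSO, 0 to 0 at 1 h with MM401 and 2 to 6 at 4 h with MM401. It gave 0 to 1 for MM401 against DMSO in water, 0 to 0 in bicuculline at either time, 1 to 5 for 4 h against 1 h with DMSO, 2 to 4 with MM401, 0 to 0 for water and 0 to 0 for the interaction. The cause of these shifts was not tested. Counts of all genes called also shifted with the setting, so these shifts are not shown to be particular to the members. For the 28 called differences of single members and ligands, 313 values under the alternatives kept the call, 42 lost it and 0 changed sign. Differences that were not called are outside this count, and some of them changed sign under plain library totals. DESeq2 gave the members no adjusted p for the interaction, so it has no count there. With the replicate number as a block, members called were 1 and 1 with DMSO at 1 h and 4 h, 0 and 6 with MM401, 0 in each comparison of MM401 with DMSO, 3 and 4 for 4 h against 1 h, 0 for water and 0 for the interaction, so the block moved no count of members.

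Over all genes, MM401 against DMSO in water gave 14 calls, but 162 with DESeq2, 4 under plain library totals, 0 with all 21 libraries, 0 with only the groups compared and 1272 without replicate 1 of DMSO with water. In bicuculline at 1 h it gave 1, but 14 with DESeq2 and 4 with the block, and at 4 h 0, but 7 with DESeq2. Water at 4 h against 1 h gave 147, but 275 with DESeq2 and 19 with all 21 libraries. The interaction gave 0, but 436 with DESeq2 and 1551 without replicate 1 of DMSO with water. For 4 h against 1 h of bicuculline 5805 and 5691 became 3745 and 3646 with all 21 libraries.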

Other observations

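Some regulators of microglial identity were among the listed genes called at 4 h of bicuculline. Spi1, which encodes the transcription factor PU.1, had a mean of 3.47 CPM in water and 4.70 CPM with bicuculline in the DMSO groups, a difference of 0.44 ± 0.14 (log2, SE), and 2.85 and 5.15 CPM with MM401, a difference of 0.86 ± 0.16. Runx1 differed by 0.37 ± 0.13 with DMSO and 0.59 ± 0.14 with MM401. Sall1 was called with MM401, at 0.59 ± 0.12, and with DMSO it differed by 0.12 ± 0.11, which did not pass, with overlapping libraries. Under plain library totals the DMSO differences of Spi1 and Runx1 were 0.16 and 0.10 and no longer called, that of Sall1 was -0.16, and the MM401 differences were 0.78, 0.51 and 0.52 for Spi1, Runx1 and Sall1, all called. Without replicate 2 of the MM401 water group at 4 h, the MM401 call of Runx1 was lost (0.50, edgeR adjusted p = 0.0564). These genes were named after their values were seen, and values with no other setting named come from the fit with TMM scaling.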
